A study of Mus musculus with 8 samples.

Results

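The genes described here encode the proteasome of the mouse heart. They were chosen by name: every protein-coding gene of the count table whose symbol starts with Psm, a letter from a to g and a number was taken, which gave 50 of 43346 genes listed. By role they comprised 7 alpha and 7 constitutive beta subunits of the 20S core, 5 immunoproteasome genes, 2 tissue-specific core subunits, 6 ATPases and 11 non-ATPase subunits of the 19S cap, 4 further activators or inhibitors of the core, 7 assembly chaperones, and Psmc3ip, whose symbol fits the pattern although it encodes a meiotic recombination factor and no proteasome part. Of the 50 genes, 49 passed the filter on low counts. Psmb11, the thymus-specific beta subunit, had 0 counts in every mouse, which allows levels of up to 0.151 to 0.257 CPM (counts scaled to 1000000 per library) by library, at 3 counts each and for counting error only. Pseudogenes whose symbols fit the same pattern (4 of them) were left out because they are not protein-coding.

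RNA sequencing was performed on ventricular tissue of 8 male C57BL/6 mice. At 7 weeks of age, 4 mice received 1000000 LLC1 cells in PBS under the skin of the left flank (LLC1, or tumor-bearing, mice) and 4 received PBS alone (PBS mice), and all were sampled after 14 days. LLC1 is a Lewis lung carcinoma line of C57BL origin, so the tumor grew in hosts with an intact immune system, and the heart itself carried no graft. Mice are named by group and replicate code (LLC1 1-2, 1-3, 1-5 and 2-2, PBS 1-1, 1-3, 2-1 and 2-5).

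Library totals ranged from 12480706 to 19747596 counts. The cardiomyocyte markers chosen as a check of the tissue were all detected, with a summed level of 78434 to 93852 CPM, and those of fat were near 0, at up to 0.515 CPM. On the principal components of all tested genes, the first (31.5% of the variance) separated LLC1 from PBS mice and the second (25.2%) set PBS 1-1 (35.3) apart from the other PBS mice (-23.3 to -10.8). Tests compared 4 with 4 mice by edgeR's quasi-likelihood test over all 16111 genes that passed the filter, and a gene with a Benjamini-Hochberg false discovery rate (FDR) under 0.05 was taken as changed. Levels are CPM scaled by TMM factors, and are given as mean ± SD over 4 mice. In bulk tissue, fewer cells of a type and less RNA per cell cannot be told apart.

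The proteasome degrades proteins that carry chains of ubiquitin. Its 20S core is a barrel of alpha rings, which gate the entrance, around beta rings, of which the subunits encoded by Psmb5, Psmb6 and Psmb7 cut peptide bonds, and the 19S cap recognises ubiquitin chains, unfolds the substrate with its ring of ATPases and feeds it to the core. Interferon-inducible subunits encoded by Psmb8, Psmb9 and Psmb10 replace the constitutive ones to form the immunoproteasome, which shapes peptides for MHC class I, together with the PA28 activator encoded by Psme1 and Psme2. In heart muscle the proteasome removes damaged and surplus proteins, including those of the contractile apparatus, and the study asked whether pathways of protein breakdown were altered in hearts of tumor-bearing mice.

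Psme2, which codes for PA28 beta, and its near-identical copy Psme2b differ at only 5 of 717 coding bases (99.3% identity), so reads of these genes are hard to assign. Psme2 lies on the minus strand of chromosome 14 (mm10, 55587441 to 55591113) and Psme2b on the minus strand of chromosome 11 (48945354 to 48946190).

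The promoters of Psmd4 and Psmb6 are shown for 2 reasons. In TMM-scaled levels each gene was higher in every tumor-bearing mouse than in any PBS mouse. Each window also holds the core of a motif tied to proteasome genes. The 250 bases before the RefSeq start (GRCm38.p6) are written in the direction of the gene. In the Psmd4 window (chr3:95042615-95042864, minus strand) capitals mark the core of the interferon-stimulated response element, GAAA, a spacer of 2 bases and GAAA, found on the other strand from 80 bases before the start. In the Psmb6 window (chr11:70525107-70525356, plus strand) capitals mark the core of the antioxidant response element, TGACNNNGC, from 9 bases before the start.
Psmd4 promoter: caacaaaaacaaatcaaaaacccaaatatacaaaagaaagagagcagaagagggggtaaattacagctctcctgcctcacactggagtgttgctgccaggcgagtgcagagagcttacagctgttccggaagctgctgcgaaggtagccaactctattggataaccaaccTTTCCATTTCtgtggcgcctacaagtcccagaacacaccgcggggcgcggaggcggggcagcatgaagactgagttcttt
Psmb6 promoter: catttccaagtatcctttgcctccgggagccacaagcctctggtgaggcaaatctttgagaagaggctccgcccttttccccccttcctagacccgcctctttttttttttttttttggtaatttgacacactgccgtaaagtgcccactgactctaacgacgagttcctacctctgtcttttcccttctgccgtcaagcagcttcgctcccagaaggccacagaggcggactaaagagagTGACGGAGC
RefSeq windows matched 42 of the 50 genes, and motifs were searched on both strands after the expression values were known. The antioxidant core occurred in 5 genes (11.9%, against 11.5% of all 27025 genes with a window): Psmb5, Psmb6, Psmc6, Psmd9 and Psmd12. The interferon-stimulated core occurred in 3 (7.14%, against 3.46%), Psmb3, Psmd4 and Psmd9, and the STAT site TTCNNNGAA in 2 (4.76%, against 8.13%), Psmb8 and Psmg1. These are letter matches only, and no binding was measured.

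Across the whole set, differences were small and mostly upward. Psmd4, Psmb10 and Psmc1 rose in tumor-bearing hearts and Psme2b fell, and no other gene of the set passed the test. Thus 3 of 49 (6.12%) were higher and 1 of 49 (2.04%) lower, against 4.12% and 4.61% of all genes tested. An unadjusted p under 0.05 was reached by 12 of 49 (24.5%), against 25.5% of all genes, so the share of genes that moved was near the background. The direction was less even: the log2 fold change (LLC1 over PBS) was above 0 for 35 of 49 (71.4%), against 47.9% of all genes, with a median of 0.08 against -0.01. When libraries were scaled by their totals alone, 29 of 49 were above 0 and the median was 0.03, while the median of all genes moved down alike, to -0.06. Without LLC1 1-2, the highest tumor-bearing mouse for 36 of the 49 genes, 30 were above 0 and the median was 0.06. In 13 of 49 genes (26.5%) every tumor-bearing mouse was above every PBS mouse, against 8.89% of all genes, and in none was every tumor-bearing mouse below, against 8.27%. These counts are for TMM-scaled levels, and several of the 13 genes overlap with library totals alone. Of all genes called, 47.2% were higher in LLC1 mice, a share that was 22.1% with scaling by library totals and 61.2% with offsets for gene length.

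**Figure D1:**
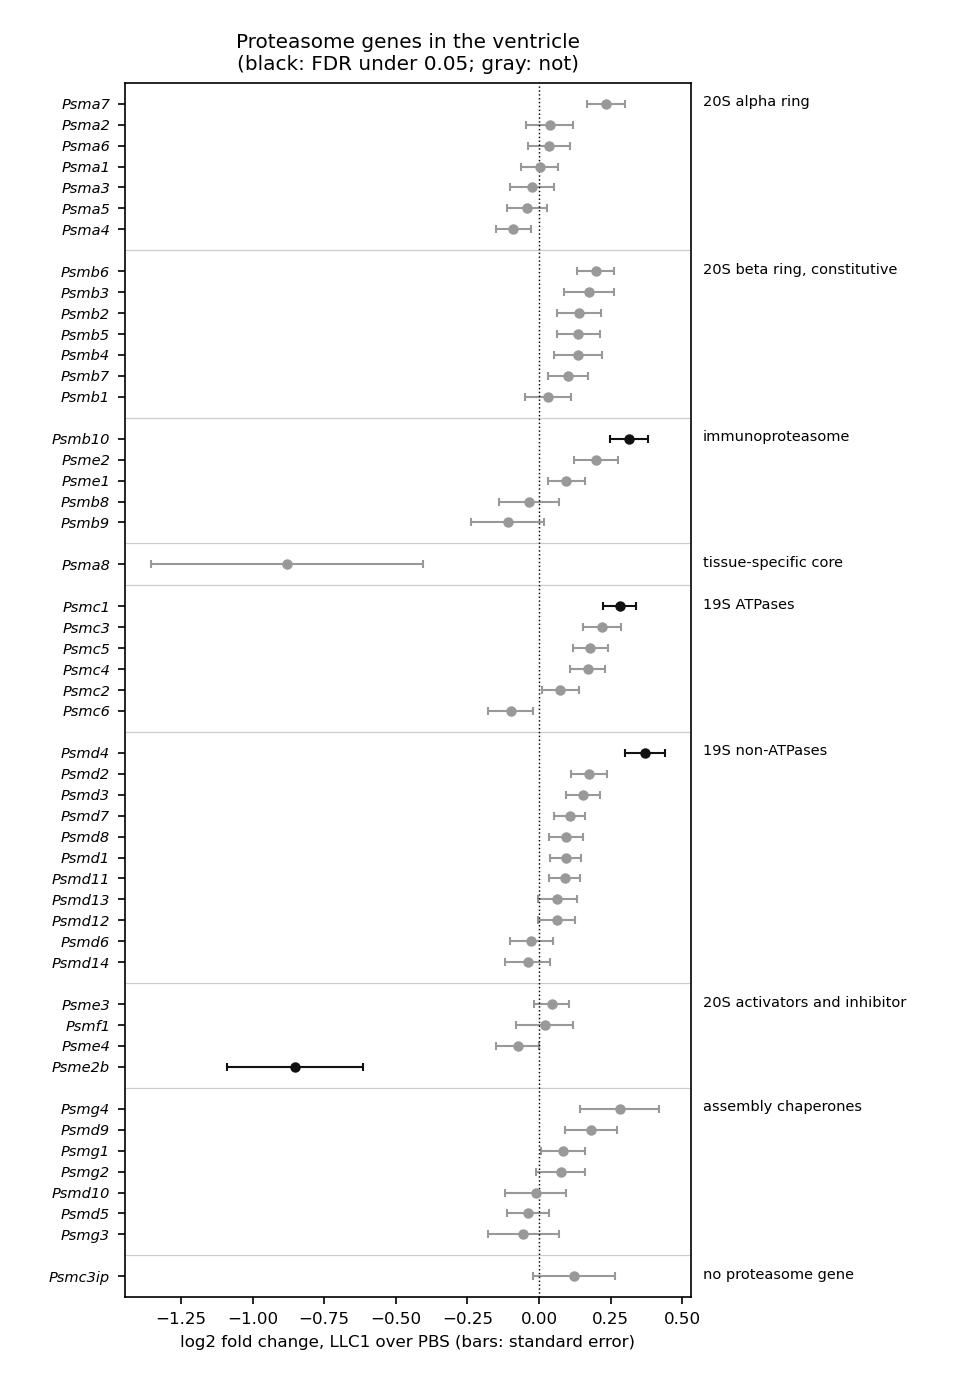
Log2 fold change (LLC1 over PBS, edgeR, x axis) with its standard error for the 49 tested genes of the set, ordered by role, with genes past FDR 0.05 in black. Psmd4 (0.37), Psmb10 (0.31) and Psmc1 (0.28) lie to the right of the dotted line at 0 and Psme2b (-0.85) to its left, while most other genes lie within 0.25 of it.

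The 19S cap held the largest number of genes whose groups did not overlap. Of its 17 genes, 2 rose (11.8%, against 4.12% of all genes), none fell, and 10 (58.8%, against 8.89%) were higher in every tumor-bearing mouse than in any PBS mouse. This separation depends on the TMM factors, which were 0.962 to 1.01 in LLC1 and 0.935 to 1.05 in PBS mice. With counts over library totals alone, Psmc1, Psmc3 and Psmd4 stay separate. Psmc4, Psmc5, Psmd1, Psmd2, Psmd3, Psmd7 and Psmd11 then overlap between the groups. Its summed level was 1966, 1840, 1875 and 1828 CPM in LLC1 1-2, 1-3, 1-5 and 2-2 and 1697, 1739, 1707 and 1683 CPM in PBS 1-1, 1-3, 2-1 and 2-5. The lowest tumor-bearing mouse was thus above the highest PBS mouse (means 1877 ± 62.1 and 1707 ± 23.9 CPM). The median log2 fold change of the 17 genes was 0.09, against -0.01 for all genes, and 0.04 against -0.06 with scaling by library totals.

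Psmd4, the cap's resident ubiquitin receptor (Rpn10), had the largest rise of the set. Its level was 121.5, 103.3, 104.1 and 109.3 CPM in LLC1 1-2, 1-3, 1-5 and 2-2 and 78.4, 86.4, 84.0 and 89.8 CPM in PBS 1-1, 1-3, 2-1 and 2-5. All tumor-bearing mice were above all PBS mice. The rise was 1.29-fold (log2 0.37 ± 0.07 SE, edgeR FDR = 0.0101), and the 8 mice had between 914 and 2172 raw counts. Its FDR stayed under 0.05 when any single mouse was left out, and missed it with scaling by library totals (log2 0.31, FDR = 0.0512). The gene lies on chromosome 3 (mm10, 95032694 to 95042614).

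Psmc1 encodes Rpt2, an ATPase whose tail opens the gate of the core. Its level was 120.7, 121.6, 119.8 and 112.8 CPM in LLC1 1-2, 1-3, 1-5 and 2-2 and 102.2, 95.3, 96.3 and 96.98 CPM in PBS 1-1, 1-3, 2-1 and 2-5. The 3 highest tumor-bearing mice were within 2 CPM of each other and the groups did not overlap. It rose 1.22-fold (log2 0.28 ± 0.06 SE, edgeR FDR = 0.0127), and this call was lost without PBS 1-3 (log2 0.27, FDR = 0.0544). Psmc1 lies on chromosome 12 (100110186 to 100123364) and shares 97.1% of 728 aligned bases with the pseudogene Gm9575, which had at most 77 counts in any mouse.

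**Figure D2:**
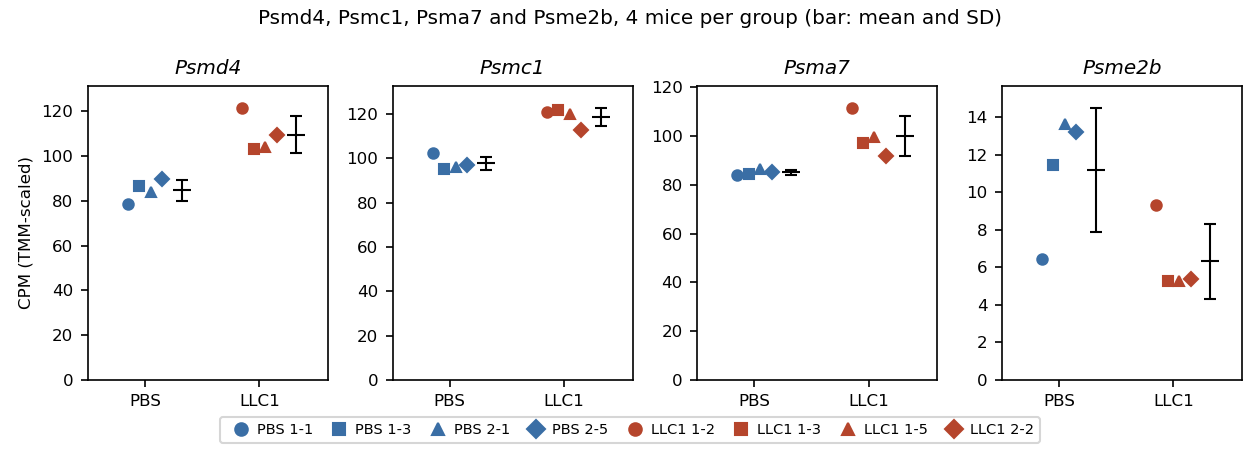
Level (CPM, y axis from 0) of Psmd4, Psmc1, Psma7 and Psme2b in each of 4 PBS and 4 LLC1 mice, with mean and SD. For Psmd4, Psmc1 and Psma7 every LLC1 point is above every PBS point, whereas for Psme2b the LLC1 mouse 1-2 (9.33 CPM) is above the PBS mouse 1-1 (6.43 CPM).

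The other ATPases, which form the unfolding ring, were close to the threshold or under it. Psmc3 (log2 0.22, FDR = 0.0624), Psmc5 (0.18, FDR = 0.0870) and Psmc4 (0.17, FDR = 0.106) were higher in all 4 tumor-bearing mice than in any PBS mouse, without passing edgeR's test. Among the other settings, Psmc3 was called only with DESeq2 and with length offsets. Psmc2 was at 0.07 (FDR = 0.502) and Psmc6, the lowest of the class, at -0.10 ± 0.08 (FDR = 0.462). The median of the 6 ATPases was 0.17, and 4 of them (66.7%, against 8.89% of all genes) did not overlap in TMM-scaled levels.

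Among the 11 non-ATPase subunits, 9 had a log2 fold change above 0 and 6 (54.5%, against 8.89% of all genes) did not overlap between the groups in TMM-scaled levels. Besides Psmd4 these 6 were Psmd2, a scaffold of the cap's base (0.17, edgeR FDR = 0.105), Psmd3 (0.15, FDR = 0.135), Psmd7 (0.11), Psmd1 (0.09) and Psmd11 (0.09), none of which passed the test. Psmd2 and Psmd3 were called only with length offsets. Psmd14, the deubiquitinase of the cap that removes chains from substrates, had the lowest value of the class, 39.4 ± 1.27 CPM in tumor-bearing against 40.6 ± 4.10 CPM in PBS mice (log2 -0.04 ± 0.08 SE, FDR = 0.791). Whether the subunits of the cap differed from each other in fold change was not tested.

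In the constitutive 20S core few subunits separated the groups. None of its 14 subunits passed the test, and 2 (14.3%) were higher without overlap, a share near the 8.89% of all genes. The summed level was 1380, 1214, 1303 and 1205 CPM in LLC1 1-2, 1-3, 1-5 and 2-2 and 1263, 1209, 1140 and 1193 CPM in PBS 1-1, 1-3, 2-1 and 2-5. LLC1 2-2 was below PBS 1-1 and PBS 1-3, so the groups overlapped (means 1275 ± 82.5 and 1201 ± 50.7 CPM). The core and the cap were not tested against each other.

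Within the alpha ring, which gates the core and takes up its caps, only Psma7 did not overlap between the groups. Psma7 was at 111.5, 96.99, 99.6 and 91.9 CPM in LLC1 1-2, 1-3, 1-5 and 2-2 and at 84.2, 84.4, 86.5 and 85.2 CPM in PBS 1-1, 1-3, 2-1 and 2-5. The PBS mice were within 3 CPM of each other and all below the tumor-bearing mice, but the difference just missed the threshold (log2 0.23 ± 0.07 SE, edgeR FDR = 0.0517). It passed in 4 of 11 other settings (FDR = 0.0243 with DESeq2, up to 0.163 with library totals) and in 0 of 8 fits that each left out a mouse (FDR = 0.0527 to 0.138). The other 6 alpha subunits ran from -0.09 for Psma4 (FDR = 0.403) to 0.04 for Psma2, and the class median was 0.00, or -0.05 with scaling by library totals (all genes -0.06) and -0.02 with length offsets (all genes 0.02).

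The beta ring, which carries the proteolytic sites, had log2 fold changes above 0 for all 7 constitutive subunits, with a median of 0.14. With scaling by library totals or with length offsets the median was 0.08 in each case and 6 of 7 stayed above 0, Psmb1 (0.03, FDR = 0.841) being the exception, against medians of all genes of -0.06 and 0.02 under those settings. Psmb6, the beta 1 subunit with caspase-like activity, was at 126.4, 111.2, 120.7 and 114.5 CPM in LLC1 1-2, 1-3, 1-5 and 2-2. It was at 101.9, 101.5, 98.9 and 109.9 CPM in PBS 1-1, 1-3, 2-1 and 2-5, below every tumor-bearing mouse, though the difference did not pass edgeR's test (log2 0.20 ± 0.06 SE, FDR = 0.0761). Psmb6 passed in 1 of 11 other settings (DESeq2, FDR = 0.0448) and in 1 of 8 fits that each left out a mouse (PBS 2-5, edgeR FDR = 0.0468). With library totals alone its groups overlap. Psmb5, with chymotrypsin-like activity, was at 102.1 ± 9.15 against 92.8 ± 5.44 CPM (0.14, FDR = 0.277) and Psmb7, with trypsin-like activity, at 147.4 ± 12.3 against 137.3 ± 5.07 CPM (0.10, FDR = 0.389). Both overlapped between the groups.

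The subunits of the core and cap were far from equal in level. Per kilobase of the gene length given in the count table, the 31 constitutive subunits ranged 10.3-fold in PBS mice, from 11.0 to 113.1 CPM per kb, with a median of 45.6. These values depend on the lengths used: Psmb7, the highest, has 1214 bases in the count table and 3421 bases of merged exons in GENCODE M21, so the subunits were not ranked. Between mice of a group the subunits varied little, with a median coefficient of variation of 4.71% in LLC1 and 5.63% in PBS mice. LLC1 1-2 had the highest level of the tumor-bearing mice for 26 of the 31 subunits, including all 14 of the core. PBS 1-1 was the highest of the PBS mice for 15 and the lowest for 7.

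**Figure D3:**
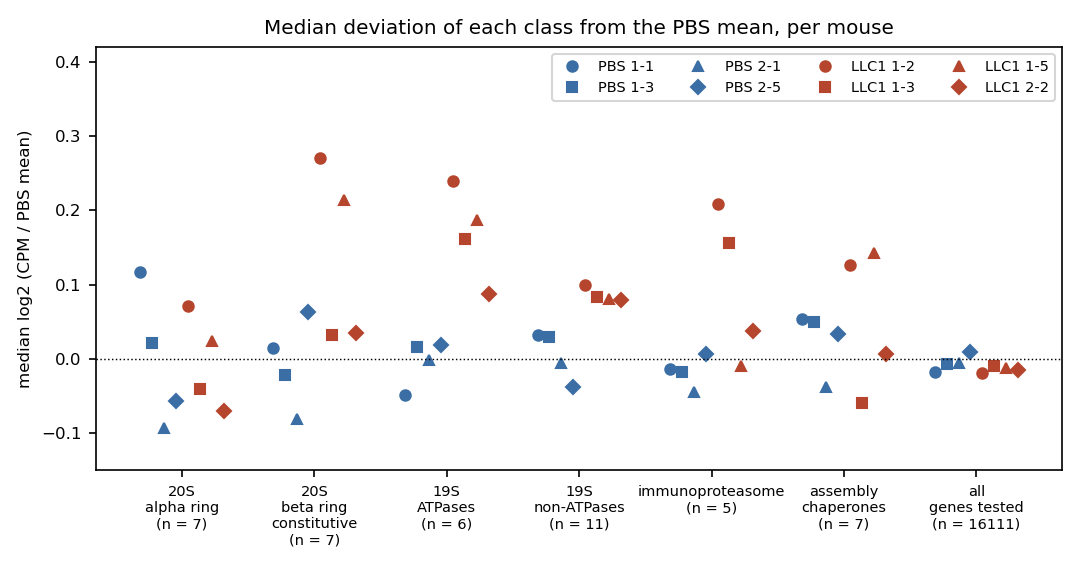
Median over the genes of each class of log2 (CPM over the PBS mean), y axis, for each mouse, with n the number of genes. In both 19S classes all 4 LLC1 mice (0.08 to 0.24) lie above all PBS mice (up to 0.03), whereas in the alpha ring, the beta ring, the immunoproteasome and the chaperones the groups overlap, and the median of all genes stays within 0.02 of 0 in every mouse.

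Of the 5 immunoproteasome genes 1 passed the test. Psmb10 rose, Psmb8 and Psmb9 had log2 fold changes below 0 that did not pass the test, and the PA28 genes Psme1 and Psme2 had values above 0 that did not pass it. The summed level of the 5 genes was 206.6 to 230.5 CPM in tumor-bearing and 189.7 to 201.7 CPM in PBS mice, without overlap. Psme1, which did not pass the test, held the largest part of this sum. The groups overlap when Psme2b is added to the sum or when counts are scaled by library totals alone. Their median log2 fold change was 0.10, and 0.04 with scaling by library totals (all genes -0.06) and 0.01 with the counts of Psme2 and Psme2b summed.

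Psmb10, the inducible beta 2 subunit, was at 46.0, 41.7, 41.5 and 40.9 CPM in LLC1 1-2, 1-3, 1-5 and 2-2 and at 34.1, 33.3, 35.8 and 33.5 CPM in PBS 1-1, 1-3, 2-1 and 2-5. Every tumor-bearing mouse was above every PBS mouse, and 3 of the 4 lay within 1 CPM of each other. The rise was 1.24-fold (log2 0.31 ± 0.07 SE, edgeR FDR = 0.0143). The call, though not the direction, was lost without PBS 1-3 (log2 0.30, FDR = 0.0581) and with scaling by library totals (0.26, FDR = 0.0566). Psmb10 lies on chromosome 8 (105935728 to 105938392).

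Psmb8, the inducible beta 5 subunit, was at 12.6, 9.81, 10.1 and 10.3 CPM in LLC1 1-2, 1-3, 1-5 and 2-2 and at 10.5, 10.8, 10.6 and 11.9 CPM in PBS 1-1, 1-3, 2-1 and 2-5. LLC1 1-2 was the highest and the other tumor-bearing mice the lowest of all 8, so the groups overlapped (log2 -0.03 ± 0.10 SE, FDR = 0.873). Psmb9, the inducible beta 1 subunit, was at 8.73, 6.98, 6.73 and 7.04 CPM in the LLC1 mice and 6.78, 7.71, 8.004 and 9.09 CPM in the PBS mice, in the same order. LLC1 1-2 and PBS 1-1 each crossed into the other group's range (log2 -0.11 ± 0.13 SE, FDR = 0.627). These genes had 79 to 204 counts per mouse, and of their exons 14.7% (Psmb8, with Gm20496) and 5.79% (Psmb9, with Tap1) overlap a gene on the other strand, from which a library kit that does not mark strand cannot tell their reads.

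Psme1, the alpha subunit of PA28, was at 115.6 ± 7.48 CPM in tumor-bearing and 108.2 ± 3.799 CPM in PBS mice, with overlapping groups (log2 0.10 ± 0.06 SE, edgeR FDR = 0.381). Psme2 was at 41.8, 39.1, 40.8 and 39.2 CPM in LLC1 1-2, 1-3, 1-5 and 2-2 and at 39.2, 36.9, 31.4 and 32.9 CPM in PBS 1-1, 1-3, 2-1 and 2-5. PBS 1-1 reached the level of the tumor-bearing mice while the other PBS mice lay below it. The difference did not pass the test (log2 0.20 ± 0.08 SE, FDR = 0.136), and it passed without PBS 1-1 (FDR = 0.0372).

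**Figure D4:**
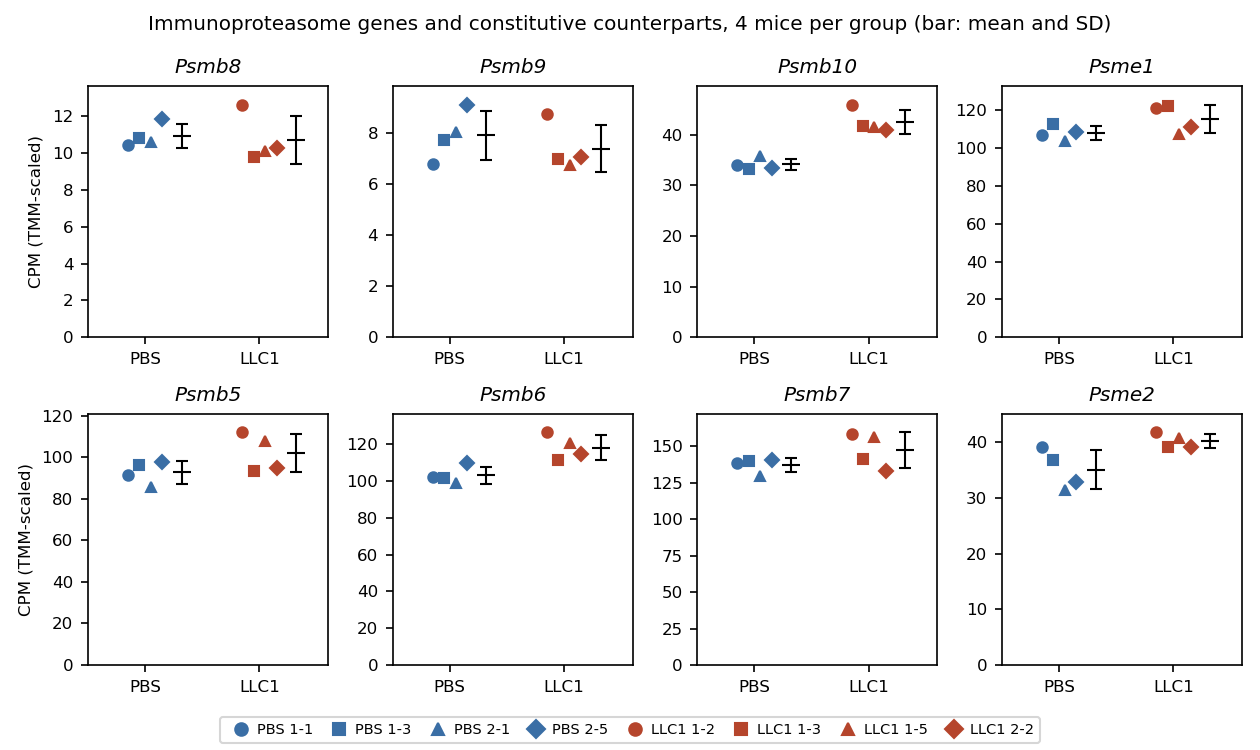
Level (CPM, y axes from 0) of the 5 immunoproteasome genes and of Psmb5, Psmb6 and Psmb7, the constitutive counterparts of Psmb8, Psmb9 and Psmb10, in each mouse, with mean and SD of 4 mice. Psmb10 and Psmb6 separate the groups, and Psmb8 and Psmb9 run at about 7 to 13 CPM in both groups with LLC1 1-2 above the other LLC1 mice.

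Psme2b, the near-identical relative of Psme2, had the opposite sign. It was at 9.33, 5.27, 5.25 and 5.38 CPM in LLC1 1-2, 1-3, 1-5 and 2-2 (141, 80, 96 and 107 counts) and at 6.43, 11.4, 13.7 and 13.2 CPM in PBS 1-1, 1-3, 2-1 and 2-5 (75, 163, 232 and 224 counts). LLC1 1-2 was above PBS 1-1, so the groups overlapped, although the mean was lower in tumor-bearing mice (6.31 ± 2.01 against 11.2 ± 3.31 CPM). It fell to 0.554-fold (log2 -0.85 ± 0.24 SE, edgeR FDR = 0.0461), a call kept in 2 of the 8 fits that each left out a mouse. It was also lost with scaling by library totals (FDR = 0.0525), with robust moderation (0.0668) and with the code's leading digit in the model (0.0686). Over the 10 other settings that kept all mice and this gene, its log2 fold change ran from -0.96 to -0.77. Summing both genes removes the need to assign reads between them. With their counts summed, an alternative chosen after the values were seen, the log2 fold change was 0.01 (FDR = 0.966). How many Psme2b reads came from Psme2 was not tested.

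The balance between inducible and constitutive catalytic subunits was compared within each mouse. Per kb, Psmb8 was at 3.59%, 3.34%, 2.99% and 3.44% of Psmb5 in LLC1 1-2, 1-3, 1-5 and 2-2 and at 3.64%, 3.58%, 3.94% and 3.86% in PBS 1-1, 1-3, 2-1 and 2-5. LLC1 1-2 alone reached the PBS range, and the log2 ratio differed by -0.17 (LLC1 minus PBS, exact permutation test, two-sided, p = 0.0571). Psmb9 was at 3.19 ± 0.280% of Psmb6 in tumor-bearing mice and at 3.92 ± 0.372% in PBS mice, a log2 difference of -0.30 (exact permutation p = 0.0571).

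The third pair had a difference of the opposite sign. Psmb10 was at 27.7%, 28.2%, 25.3% and 29.4% of Psmb7 in LLC1 1-2, 1-3, 1-5 and 2-2 and at 23.5%, 22.7%, 26.4% and 22.8% in PBS 1-1, 1-3, 2-1 and 2-5. The groups overlapped only through LLC1 1-5 and PBS 2-1, and the log2 difference was 0.22 (exact permutation p = 0.0571). Adjusted over the 3 pairs each p was 0.0571, and none passed 0.05. The smallest p that 4 against 4 mice allow is 0.0286. The percentages, unlike the log2 differences, depend on the gene lengths used: for Psmb10 the count table gives 1270 bases and the merged exons of GENCODE M21 come to 1705, beside the lengths of Psmb7 given above. Trends of counts with gene length were not corrected in the ratios. With length offsets, the log2 fold changes were -0.01 for Psmb8 and 0.04 for Psmb5. They were -0.06 for Psmb9 and 0.19 for Psmb6, and 0.26 for Psmb10 and 0.04 for Psmb7.

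**Figure D5:**
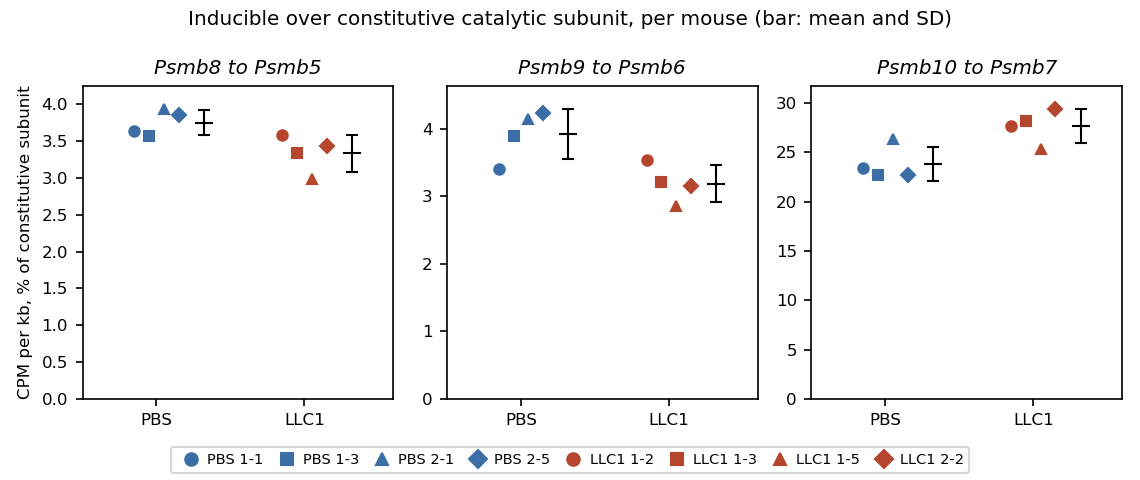
Level per kb of Psmb8, Psmb9 and Psmb10 as a percentage of the constitutive subunit they replace (y axes from 0), in each mouse, with mean and SD of 4 mice per group. The first and second ratios average lower in LLC1 mice (3.34% against 3.75%, 3.19% against 3.92%) and the third higher (27.7% against 23.8%), with overlapping groups in each.

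Other activators and the inhibitor of the core showed little difference. Psme4, which encodes PA200, a large activator of the core, was at 407.4 ± 15.6 CPM in tumor-bearing and 429.1 ± 41.5 CPM in PBS mice (log2 -0.07, edgeR FDR = 0.574). Psme3, the nuclear activator PA28 gamma, was at 51.8 ± 1.72 against 50.3 ± 2.38 CPM (0.04, FDR = 0.696) and Psmf1, the inhibitor PI31, at 20.7 ± 2.24 against 20.3 ± 1.962 CPM (0.02, FDR = 0.925). Psma8, the testis alpha subunit on chromosome 18, was at the edge of detection with 3 to 17 counts per mouse and did not pass the test (-0.88 ± 0.47 SE, FDR = 0.269). Psmc3ip was at 4.64 ± 0.745 against 4.24 ± 0.316 CPM (0.12, FDR = 0.635), and 21.2% of its exons overlap Mlx on the other strand.

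None of the 7 assembly chaperones passed the test, and in none did the groups separate. Their log2 fold changes ran from -0.06 for Psmg3 (6.78 ± 0.588 against 7.09 ± 0.908 CPM, edgeR FDR = 0.822) to 0.28 for Psmg4 (6.02 ± 0.585 against 5.01 ± 0.779 CPM, FDR = 0.228), which pair with each other to build the alpha ring. Psmd9, a chaperone of the ATPase ring, was at 0.18 (FDR = 0.230), but 25.5% of its exons overlap the transcript Gm26745 on the other strand. Psmd5 and Psmd10, further chaperones of that ring, were at -0.04 and -0.01, and Psmg1 and Psmg2, the pair that starts the alpha ring, at 0.08 each. Pomp, the chaperone of the beta ring, whose symbol lies outside the pattern, was at 69.9 ± 8.33 against 65.3 ± 5.62 CPM (0.10, FDR = 0.527).

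Of 13 measured partners of the proteasome, 1 rose (7.69%, near the 4.12% of all genes) and none fell. This was Adrm1, which encodes the ubiquitin receptor Rpn13 of the cap, at 60.9 to 68.8 CPM in tumor-bearing and 45.7 to 55.0 CPM in PBS mice, with no overlap (1.29-fold, log2 0.36 ± 0.07 SE, edgeR FDR = 0.0113). The shuttle factor Ubqln1 (-0.10, FDR = 0.375) did not pass the test. Sem1, the small cap subunit, was at 107.9 ± 11.9 against 105.7 ± 6.69 CPM (0.03, FDR = 0.856). The median of the 13 partners was 0.10.

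The list of 6 regulators of proteasome genes also held Stub1, which encodes a ubiquitin ligase, and none of the 6 passed the test. Of these 6, 2 (33.3%, against 8.89% of all genes), Nfe2l1 and Stub1, were higher without overlap. Stat3 had the highest log2 fold change of the list (0.28, edgeR FDR = 0.0702), Stub1 was at 0.18 (FDR = 0.108), and Nfe2l2, a factor that binds antioxidant response elements, at -0.01 (FDR = 0.938). Nfe2l1, the transcription factor that drives proteasome genes when the proteasome is impaired, was at 638.5 to 706.1 CPM in tumor-bearing and 593.3 to 633.7 CPM in PBS mice, without overlap (0.15 ± 0.06 SE, FDR = 0.142).

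Of 13 antigen-processing and interferon genes, none rose and 3 fell (23.1%, against 4.61% of all genes). B2m, the light chain of MHC class I, fell from 227.4 ± 22.7 to 154.9 ± 31.97 CPM (log2 -0.55 ± 0.12 SE, edgeR FDR = 0.0187). The chemokine gene Cxcl9 fell from 7.38 ± 1.24 to 2.26 ± 0.673 CPM (-1.70 ± 0.21 SE, FDR = 0.00105) and Irf8, a transcription factor of myeloid cells, from 8.16 ± 0.861 to 5.12 ± 1.19 CPM (-0.68 ± 0.17 SE, FDR = 0.0277). The median of the list was -0.13.

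Markers of cell types differed between the groups beside these results. Of 7 leukocyte markers 5 were tested and 2 fell (Ptprc and Lyz2, 40% against 4.61% of all genes), with a summed level of 243.0 to 305.7 CPM in tumor-bearing and 274.9 to 439.3 CPM in PBS mice, and Cd3e was at or near 0. Of 5 endothelial markers 1 fell (Kdr, 20%) and of 5 fibroblast markers 2 fell (Lum and Col1a1, 40%), and both sums overlapped between groups. Of 6 cardiomyocyte markers 1, Myh6, rose (16.7%, against 4.12% of all genes), and their summed level was 87357 to 93852 CPM in tumor-bearing and 78434 to 80626 CPM in PBS mice, without overlap. Most of that difference lay in Myh6 (54333 ± 1434 against 45869 ± 1227 CPM), with Tnnt2 (log2 0.22, FDR = 0.0526), Tnni3 (0.20) and Myl2 (0.13) of the same sign and Ryr2 (-0.17, FDR = 0.351) and Actc1 (-0.05, FDR = 0.752) of the opposite sign. None of the 3 smooth muscle and 3 erythroid markers passed the test, and the erythroid sum was highest in LLC1 1-2 (3253 CPM, against 901.4 to 1956 in the others). Of 4 skeletal muscle markers only Acta1 was tested, at an edgeR FDR of 0.414, and Myh4 was at 0 counts. The part of these differences in the values of proteasome genes was not tested.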

How the data were processed

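Gene counts of 8 mice, as deposited by the authors, were used: whole-number read counts per gene, not normalized, from 150-base paired-end TruSeq v2 libraries read on an Illumina platform and aligned to mm10. The submitters' processing notes name CASAVA, STAR and featureCounts without versions. The gene annotation and strand setting are not given in the sources used here. Each mouse's group came from its stated treatment, and as the groups share only code 1-3, on different animals, they were compared unpaired.

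Counts were analysed with edgeR 4.0.16 in R 4.3.3 (filterByExpr, TMM, estimateDisp, glmQLFit, glmQLFTest, Benjamini-Hochberg over 16111 genes). The common biological coefficient of variation was 0.109. Standard errors (SE) of fold changes were taken as the absolute log2 value over the square root of F. CPM per kb used the gene lengths of the count table. Ratios of subunits were compared by exact two-sided permutation of 70 arrangements (scipy 1.17.1). Limma 3.58.1 and DESeq2 1.42.0 served as alternatives, and each mouse was left out in turn. The edgeR, limma-voom, DESeq2 and length-offset fits were tested on simulated counts, and the permutation test on small made-up examples. The remaining steps had no such test.

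The genes named were those changed, the immunoproteasome and its counterparts, the extremes of each class, genes with low counts or near-identical copies, and the changed or preset genes of other lists. Some further genes (among them Psmc3, Psmc4, Psmc5, Psmd2, Psmd3 and Psmd9) were named after their values were seen. Members and lists were chosen with earlier results of these data known. Overlaps, transcripts and strands came from GENCODE M21, with BLAST 2.17.0 hits of at least 97% identity over 150 bases, and promoters from RefSeq. Some 35 of 50 genes have the same start and end in GENCODE M21. Some items are withheld and are not reported here.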

Additional observations from a re-analysis of the deposited data

Results flagged for a closer look

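In groups of 4 mice, a mouse whose gap to its nearest neighbour was larger, as a share of the group's whole range, than Dixon's 95% critical value was taken as far from the others. This held for 8 of 98 groups, and chance flags about 1 in 20. LLC1 1-2 was the highest tumor-bearing mouse for Psmb10 (gap 0.847 of the range, 46.0 against 41.7 CPM in the next mouse), Psmb8 (0.840, 12.6 against 10.3 CPM), Psmb9 (0.843, 8.73 against 7.04 CPM), Psme2b (0.968, 9.33 against 5.38 CPM) and Psmc3ip (0.895, 5.76 against 4.38 CPM). Without LLC1 1-2, Psmb10 remained higher (log2 0.28, edgeR FDR = 0.0440) and Psme2b lower (-1.09, FDR = 0.0246). LLC1 1-5 was the highest tumor-bearing mouse for Psmd5 (0.856, 17.7 against 16.6 CPM) and Psmg3 (0.872, 7.66 against 6.55 CPM), and PBS 1-1 the lowest PBS mouse for Psmd3 (0.830, 96.9 against 105.7 CPM). Over the 49 tested genes LLC1 1-2 was the highest tumor-bearing mouse for 36.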

How the results depend on the processing

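The 3 genes higher and 1 lower became 6 and 1 (7 in all) with DESeq2's Wald test, 1 and 0 with scaling by library totals (Psmc1), and 7 and 1 (8 in all) with offsets for gene length. The lower call (Psme2b) was 0 with robust moderation, with the leading digit of the mouse code in the model and with Psme2 and Psme2b summed. Upper-quartile factors, DESeq2 size factors, limma-voom and a minimum of 10 counts in every mouse gave 3 and 1, and no filter 4 and 1. Leaving out each mouse gave 1 to 4 higher, 0 to 1 lower and 1 to 5 in all. Without PBS 1-3 only Psmd4 was called, and Psme2b was called only without LLC1 1-2 or PBS 1-1 (FDR = 0.118, 0.122 and 0.125 without LLC1 2-2, 1-5 and 1-3, 0.0798, 0.109 and 0.113 without PBS 2-5, 1-3 and 2-1). The cause of these changes was not tested, and leaving out a mouse also makes its group smaller. Over the whole table, genes called higher and lower numbered 663 and 743, against 910 and 847 with DESeq2, 225 and 793 with library totals, 975 and 619 with length offsets, and from 212 and 330 without PBS 1-3 to 908 and 1041 without PBS 1-1 when a mouse was left out. The catalytic ratios kept their direction with every mouse left out and with a prior count of 2, but 7 mice cannot give an exact permutation p under 0.0571. No paired analysis was possible because the groups share only code 1-3, carried by different animals. Nothing in the labels says whether mice shared a cage, litter or extraction, and the first number of the code is not explained. With 4 mice a group, a p that missed the threshold does not show that levels were equal.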
